A study of Arabidopsis thaliana with 4 samples.

Results

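Microtubules are hollow filaments built from pairs of an alpha-tubulin and a beta-tubulin protein. In plant cells they form cortical arrays that guide where cellulose is laid down, and during division they form the spindle and the phragmoplast that builds the new cell wall. Arabidopsis thaliana carries small families of alpha genes (TUA) and beta genes (TUB) whose proteins are closely alike, while the genes are known to be used to different extents in different organs. The genes described here are those with a probe set listed to 1 gene whose symbol is TUA or TUB plus a number. There were 7 such probe sets of the 13513 listed to 1 gene and of the 22810 in all, namely the alpha genes TUA1 and TUA6 and the beta genes TUB1, TUB5, TUB6, TUB7 and TUB9. The family list holds 15 genes, 6 alpha and 9 beta. The other 8 had no probe set listed to them alone, and 1 probe set listed to several tubulin genes was not used.

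Total RNA from equal parts of rosette leaves, stem (cauline) leaves and flowers was measured on 1-colour Affymetrix arrays, with 1 array per group of plants. The plants of RNAi groups 2 and 3 carried an inverted repeat derived from the coding sequence of myosin XI-K, a motor that moves along actin filaments, and the labels call the groups independent. RNAi group 1 carried the same construct, and the control plants expressed the reporter GUS as a transgene. The labels give no age, growth condition or number of plants per group. The deposited values of RNAi group 1 and the GUS control were identical in 22810 of 22810 rows, so they entered every comparison as 1 sample, called the shared array here. Which plants were hybridised to it is not stated, so a difference from it may part silenced from control plants or silenced groups from each other, and these readings cannot be told apart. Myosin XI-K has no named probe set here, so silencing was not checked. The green leaf genes RCA and LHCB4.1 were bright on every array (14452.3 to 22392.2). The anther tapetum genes AT5G07230 and AMS gave 150.5 to 1064.7, whereas the 3 root genes EXPA7, EXPA18 and PYK10 gave at most 45.7. In whole-organ RNA, fewer cells of a type and less RNA per cell cannot be told apart.

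The tubulin genes did not move as a block. TUA1, TUB5 and TUB9 were brightest in RNAi group 2, and TUA6, TUB1, TUB6 and TUB7 were brightest in RNAi group 3. None was brightest on the shared array, which was brightest for 23.3% of the 15922 probe sets past the filter on dim signals, against 39.5% for RNAi group 2 and 37.1% for RNAi group 3. The split between RNAi groups 2 and 3 lay near that of all probe sets past the filter. Of these, 50.7% were higher in RNAi group 2 than in RNAi group 3 and 49.3% were lower. Each pattern held alpha and beta genes. The probes of each set differ, so a signal is compared here between arrays and not between isoforms.

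Of the alpha genes, TUA1, known in Arabidopsis for its preferential expression in pollen, had a signal of 805.5 in RNAi group 2 and 452.0 in RNAi group 3, against 454.2 on the shared array. RNAi group 2 was thus 1.77-fold the shared array, a size that 15.5% of the probe sets past the filter reached in either direction. RNAi group 3 lay at 0.995 of the shared array. The difference between RNAi groups 2 and 3 was of a size that 24.0% reached. TUA6, whose fusion with green fluorescent protein is widely used to see microtubules, had 3535.9 in RNAi group 2 and 6938.0 in RNAi group 3, against 4471.9 on the shared array. TUA6 lay lowest in RNAi group 2 and highest in RNAi group 3, with the shared array between them. Relative to TUA6, TUA1 was 1.81 higher on the log2 scale in RNAi group 2 than in RNAi group 3.

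Of the beta genes, TUB1 varied most. On the shared array it was also the dimmest tubulin probe set, with 45.4% of all probe sets dimmer. TUB1, known as a gene expressed in roots and lowered by light, had 192.8 in RNAi group 2 and 626.2 in RNAi group 3, against 120.5 on the shared array. Its signal in RNAi group 3 was 5.20-fold that of the shared array, a size that 0.54% of the probe sets past the filter reached in either direction on that pair of arrays. In RNAi group 2 it was 1.60-fold the shared array, a size reached by 22.4%. The 3 root genes stayed at or under 45.7 on every array, and their part in the TUB1 values was not tested. PYK10, the brightest of them, had 41.9 in RNAi group 2 and 45.7 in RNAi group 3, against 22.1 on the shared array. EXPA18 had 7.7 and 28.5 in RNAi groups 2 and 3, against 13.0 on the shared array, and EXPA7 had 1.8 and 1.7 against 11.6, all under the floor of 32 on which no fold is given.

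TUB5 had 1953.3 in RNAi group 2 and 1324.2 in RNAi group 3, against 892.6 on the shared array. TUB9, known for expression in pollen, had 2272.5 in RNAi group 2 and 1356.0 in RNAi group 3, against 1104.6 on the shared array. Both genes ran in the same order, highest in RNAi group 2 and lowest on the shared array, at 2.19-fold and 2.06-fold the shared array in RNAi group 2 for TUB5 and TUB9. TUB6, whose fluorescent fusion is also used as a microtubule marker, had 1594.5 in RNAi group 2 and 2413.8 in RNAi group 3, against 1540.4 on the shared array. TUB7 had 834.0 in RNAi group 2 and 1282.3 in RNAi group 3, against 1004.5 on the shared array. TUB6 and TUB7 were thus highest in RNAi group 3, where they lay 1.57-fold and 1.28-fold above the shared array, and TUB7 was lowest in RNAi group 2.

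**Figure D1:**
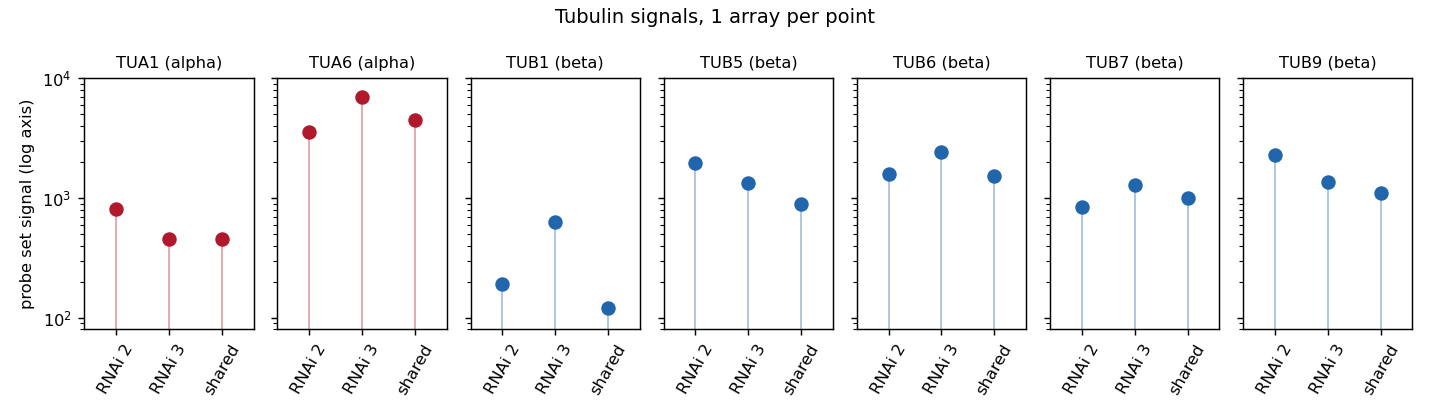
Signals of the 7 tubulin probe sets (vertical log axis, linear MAS5 units) in RNAi group 2, RNAi group 3 and on the shared array, 1 array per point, alpha genes in red and beta genes in blue. TUA1 is highest in RNAi group 2 (805.5 against 452.0 and 454.2) and TUB1 in RNAi group 3 (626.2 against 192.8 and 120.5).

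Taken array by array, 5 of the 7 tubulin genes were higher in RNAi group 2 than on the shared array, against 53.5% of the probe sets past the filter, or 4 of 7 with each array centred on its median, which put TUB6 at -0.07. In the same way 6 of 7 were higher in RNAi group 3, against 53.4%. These comparisons share 1 array, so they are not separate evidence. At 2-fold, TUB5 and TUB9 were higher in RNAi group 2 (6.29% of all) and TUB1 was higher in RNAi group 3 (3.81% of all), and no tubulin gene was lower by that much. The share of probe sets at least 2-fold lower was 3.76% in RNAi group 2 and 3.95% in RNAi group 3. With 1 array on each side these folds have no replicate check.

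The change of RNAi groups 2 and 3 (n = 2) from the shared array (n = 1) was tested with limma across the 15922 probe sets past the filter, 2-sided, with Benjamini-Hochberg adjustment. All 7 tubulin probe sets passed the filter and 0 of the 7 passed the test, beside 0.0314% of all probe sets called higher and 0% called lower. At an unadjusted p under 0.05, 0 of the 7 passed, beside 0.923% of all probe sets higher and 0.301% lower. TUB1 had the largest log2 difference, 1.53 (SE 0.72, 95% interval -0.11 to 3.16). TUB5 differed by 0.85 (SE 0.53, 95% interval -0.36 to 2.06). TUB9 differed by 0.67 (SE 0.55, 95% interval -0.59 to 1.92), TUA1 by 0.41 (SE 0.56) and TUB6 by 0.35 (SE 0.53). TUA6 and TUB7 lay nearest to no difference, at 0.15 (95% interval -1.16 to 1.46) and 0.04 (95% interval -1.18 to 1.26). The interval of each of these 7 genes spans 0 and reaches beyond 2-fold on its upper side. The adjusted p was 0.9999 for each of the 7 in limma. All 7 signs were positive in the mean, except that TUB7 lay at -0.035 with each array centred on its median. TUA1, TUA6 and TUB7 lay above the shared array in 1 of 2 RNAi arrays.

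**Figure D2:**
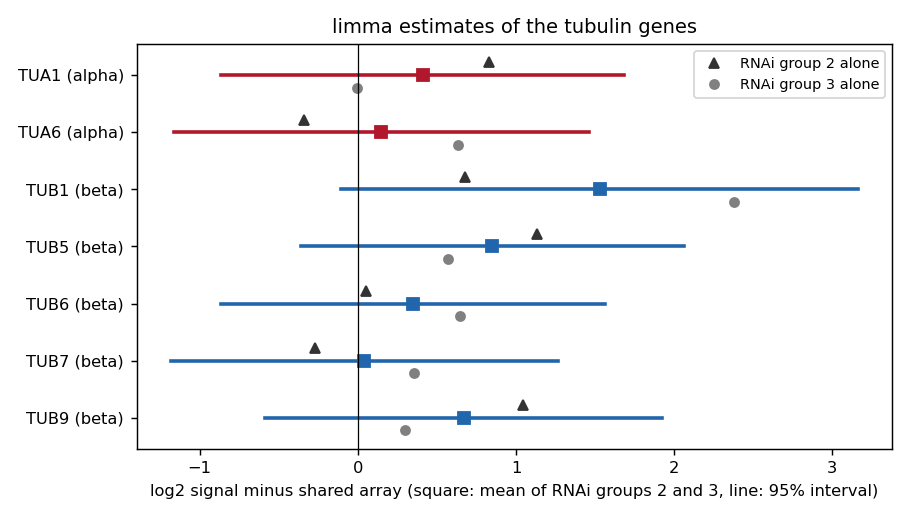
log2 difference from the shared array for each tubulin gene (horizontal axis), with the limma estimate over RNAi groups 2 and 3 as a square, its 95% interval as a line, and each RNAi group alone as a triangle (group 2) or a circle (group 3). Every interval crosses 0, and TUB1, at 1.53, lies farthest from it.

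In each RNAi group the medians of the alpha and beta families lay closer together than the highest and lowest gene within either family. The median log2 difference from the shared array was 0.24 in RNAi group 2 and 0.31 in RNAi group 3 for the 2 alpha genes. For the 5 beta genes it was 0.68 in RNAi group 2 and 0.57 in RNAi group 3. The median over all probe sets past the filter was 0.04 in either group. The alpha median averages genes that ran in opposite directions, with TUA1 at 0.83 and TUA6 at -0.34 in RNAi group 2, and at -0.007 and 0.63 in RNAi group 3. Over both RNAi groups together the medians were 0.28 for the alpha genes, 0.67 for the beta genes and 0.04 for all probe sets. With 2 alpha genes and 5 beta genes chosen with these values known, the families were not tested against each other.

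Pairs of tubulin genes were also set side by side. The likeness of a pair was taken as the Euclidean distance between their log2 differences from the shared array in RNAi groups 2 and 3, a description over 3 arrays with no test. The alpha pair lay 1.33 apart, the 10 beta pairs 0.29 to 2.24 and the 10 pairs of an alpha and a beta gene 0.29 to 2.39. TUA1, TUB5 and TUB9 lay 0.29 to 0.65 apart, and TUA6, TUB6 and TUB7 lay 0.29 to 0.43 apart. Pairs with 1 gene from each of these sets lay 1.02 to 1.47 apart, and TUB1 lay 1.84 to 2.39 from every other tubulin gene, including 1.84 to 2.24 from TUA6, TUB6 and TUB7, with which it shares its brightest array. These sets were drawn from the same differences, with TUB1 set apart, so their distances are no evidence of a grouping. The closest pair was TUB5 and TUB9, at 0.29. Of the probe sets past the filter, 1.12% lay nearer to TUB5 than TUB9 did, and 2.09% lay nearer to TUB9 than TUB5 did. TUA1 and TUB9, the genes known from pollen, lay 0.37 apart, with 6.97% of probe sets nearer to TUA1 and 3.52% nearer to TUB9. TUA6 and TUB7 lay 0.29 apart, with 5.04% of probe sets nearer to TUA6 and 10.87% nearer to TUB7.

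**Figure D3:**
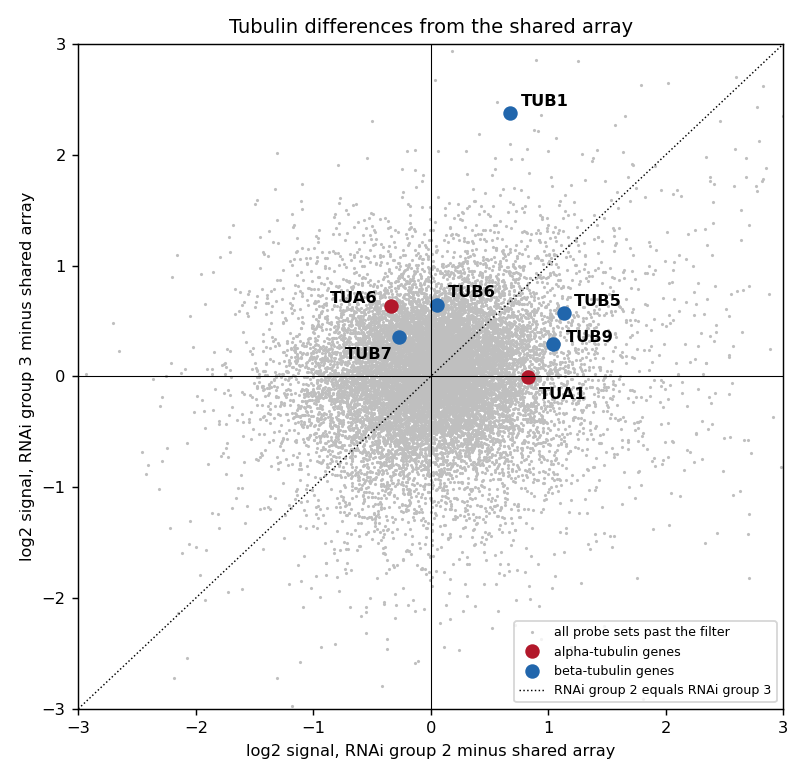
Each point is a probe set past the filter, placed by its log2 difference from the shared array in RNAi group 2 (horizontal) and RNAi group 3 (vertical), with alpha genes in red, beta genes in blue and all others in grey. The axes end at 3 in either direction and leave out 115 probe sets, none of them a tubulin gene. TUA1, TUB5 and TUB9 lie below the dotted line of equal signal in both RNAi groups, and TUA6, TUB1, TUB6 and TUB7 lie above it.

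**Figure D4:**
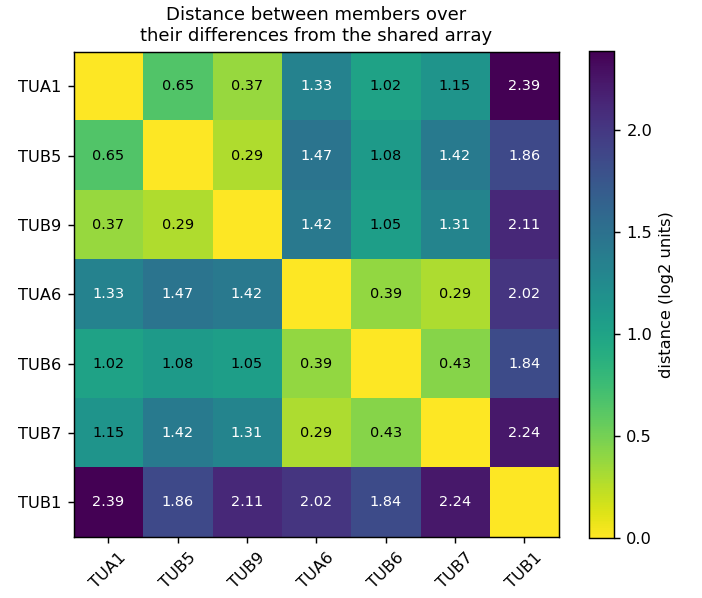
Distance in log2 units between each pair of tubulin genes over their differences from the shared array in RNAi groups 2 and 3, from yellow (near) to dark (far). The genes are ordered after their values were seen, those brightest in RNAi group 2 first and TUB1 last. Distances are 0.29 to 0.65 among TUA1, TUB5 and TUB9 and 0.29 to 0.43 among TUA6, TUB6 and TUB7, and TUB1 is at least 1.84 from each other gene.

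Among the 8668 other named probe sets past the filter, few ran like TUB1. The nearest was AT4G21323, at a distance of 0.15, with 84.5 in RNAi group 2 and 319.2 in RNAi group 3, against 57.3 on the shared array. AT5G47610 followed at 0.28, with 1492.5 and 3683.8 in RNAi groups 2 and 3, against 793.9 on the shared array. AT4G21323 was the sole named probe set within 0.25 of TUB1. The other tubulin genes had many neighbours within 0.25, namely 69 for TUB5, 121 for TUB9, 226 for TUA1, 337 for TUA6, 457 for TUB6 and 735 for TUB7. Such counts fall with distance from the bulk of the probe sets. Only 0.54% reached the size of the TUB1 difference in RNAi group 3, so its few neighbours are no separate finding. The nearest to TUB9 were the clock gene GI (1387.2 and 824.5 in RNAi groups 2 and 3, against 665.3 on the shared array) and AT5G26180. The nearest to TUB5 were AT2G25730 and CPUORF47, and the nearest to TUA1 were AT1G09290 and scpl20. AT1G03687 and AT2G41950 lay nearest to TUA6, AT5G05990 and AT1G53380 to TUB6, and AT1G25375 and AT1G72660 to TUB7, all at distances of 0.0081 to 0.0183.

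RNAi groups 2 and 3 differed from each other more than either differed from the shared array, as counted by probe sets at least 2-fold apart. Of all probe sets past the filter, 16.9% were at least 2-fold apart between RNAi groups 2 and 3, against 10% between RNAi group 2 and the shared array and 7.76% between RNAi group 3 and the shared array. Of the 7 tubulin genes, 3 were higher in RNAi group 2 than in RNAi group 3, where 50.7% of all probe sets were higher, and 4 were lower, where 49.3% were. TUB1 was the sole tubulin gene past 2-fold, at 3.25-fold higher in RNAi group 3 than in RNAi group 2, and TUA6 came next at 1.96-fold. TUB7 and TUB6 were 1.54-fold and 1.51-fold higher in RNAi group 3. TUA1 was 1.78-fold, TUB9 1.68-fold and TUB5 1.48-fold higher in RNAi group 2. This comparison does not use the shared array.

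Genes that act on tubulin or microtubules were taken from 4 lists (nucleation, tubulin folding, microtubule-associated proteins and kinesins) that hold 73 genes, of which 13 had a probe set of their own. In limma, 0 of the 12 past the filter were called higher, beside 0.0314% of all probe sets, and 0 lower, beside 0%. At an unadjusted p under 0.05 the count was also 0 of 12, beside 0.923% higher and 0.301% lower. Of the 13, 2 were higher in RNAi group 2 than in RNAi group 3, beside 50.7% of all probe sets, and 11 were lower, beside 49.3%. Their median log2 difference between these groups was -0.49, against 0.01 for all probe sets. Only 2 of the 13 were at least 2-fold apart between RNAi groups 2 and 3, beside 16.9% of all probe sets. The 13 include AT4G14330, which lay under the filter. PFI, tubulin-folding cofactor E, which helps assemble the alpha-beta pair, had 117.4 in RNAi group 2 and 319.4 in RNAi group 3, against 219.7 on the shared array. POR, tubulin-folding cofactor C, had 140.6 and 198.1 in RNAi groups 2 and 3, against 148.4 on the shared array. Both folding genes were lowest in RNAi group 2 and highest in RNAi group 3, the order that TUA6 and TUB7 also had. That order held for 2 of the 7 tubulin genes and 6 of the 13 genes of these lists, beside 23.2% of all probe sets. AT5G17410, the sole gene of the nucleation list with a probe set listed to it alone, had 117.9 and 185.7 in RNAi groups 2 and 3, against 113.1 on the shared array.

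The microtubule-associated and kinesin lists had 4 and 6 genes with a probe set listed to them alone. TON1B, needed for ordered cortical arrays and the preprophase band, had 180.6 in RNAi group 2 and 330.7 in RNAi group 3, against 219.1 on the shared array. ATMAP65-6, of a family that cross-links microtubules, had 314.4 and 251.0 in RNAi groups 2 and 3, against 262.8 on the shared array, and SP1L2, related to the microtubule-binding SPIRAL1, had 47.5 and 69.4 against 64.1. Of the 4 genes of the microtubule-associated list, ATMAP65-6 was the one higher in RNAi group 2 than in RNAi group 3. KINESIN-13A, a motor protein, had 791.3 and 814.1 in RNAi groups 2 and 3, against 601.4 on the shared array (log2 difference 0.42, SE 0.50). AT3G16060 and AT1G21730 of the kinesin list differed by 0.26 (SE 0.51) and -0.37 (SE 0.74) from the shared array. AT1G21730 was the sole gene of the kinesin list higher in RNAi group 2 (64.7) than in RNAi group 3 (36.4), against 62.9 on the shared array. KINESIN-12B, a motor of the phragmoplast, is named after its values were seen as the gene of these lists farthest apart between the RNAi groups. It had 28.6 in RNAi group 2 and 129.5 in RNAi group 3, against 70.9 on the shared array. Its signal in RNAi group 2 is under the floor of 32, so no fold is given and its rank rests on a dim value. AUR1, a mitotic kinase and the sole gene of the cell division list with a probe set listed to it alone, had 141.3 in RNAi group 2 and 303.0 in RNAi group 3, against 184.7 on the shared array. AUR1 and KINESIN-12B had the same order of arrays as TUA6 and TUB7, an order that 23.2% of all probe sets had. The green leaf genes RCA and LHCB4.1 and the tapetum gene AT5G07230 had it too. RCA and LHCB4.1 lay at only 1.033 and 1.004 of the shared array in RNAi group 3. The tapetum gene AMS did not have it and was highest on the shared array (199.1). The part of dividing cells in the TUA6 and TUB7 values was not tested.

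Pollen genes are given here beside TUA1 and TUB9, the tubulin genes known from pollen. Of 23 pollen genes listed, 4 had a probe set of their own, and their summed signal was 1030.5 in RNAi group 2 and 414.2 in RNAi group 3, against 47.0 on the shared array. Most of the summed signal in RNAi groups 2 and 3 came from AT5G45880. All 4 pollen genes were higher in RNAi group 2 than in RNAi group 3, beside 50.7% of all probe sets, but 3 lay under the filter on dim signals. The gene past it, AT5G45880, had 949.6 in RNAi group 2 and 391.6 in RNAi group 3, against 11.3 on the shared array, and was called higher in limma (adjusted p = 0.0478). That call was lost in 6 of 9 other settings (adjusted p 0.0355 to 1 over the 9), among them quantile normalisation and a floor of 32, and its signal on the shared array lies under that floor. ACT12 had 46.3 and 11.8 in RNAi groups 2 and 3, against 31.0 on the shared array, and ANX1 and ANX2 gave at most 23.3 on any array. Between RNAi groups 2 and 3 the tapetum genes went the other way. Their summed signal was 766.8 in RNAi group 2 and 1253.4 in RNAi group 3, against 1173.4 on the shared array. The green leaf genes summed to 35416.6 and 42549.4 in RNAi groups 2 and 3, against 41771.0 on the shared array. The part of organ or cell mix in the tubulin values was not tested.

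**Figure D5:**
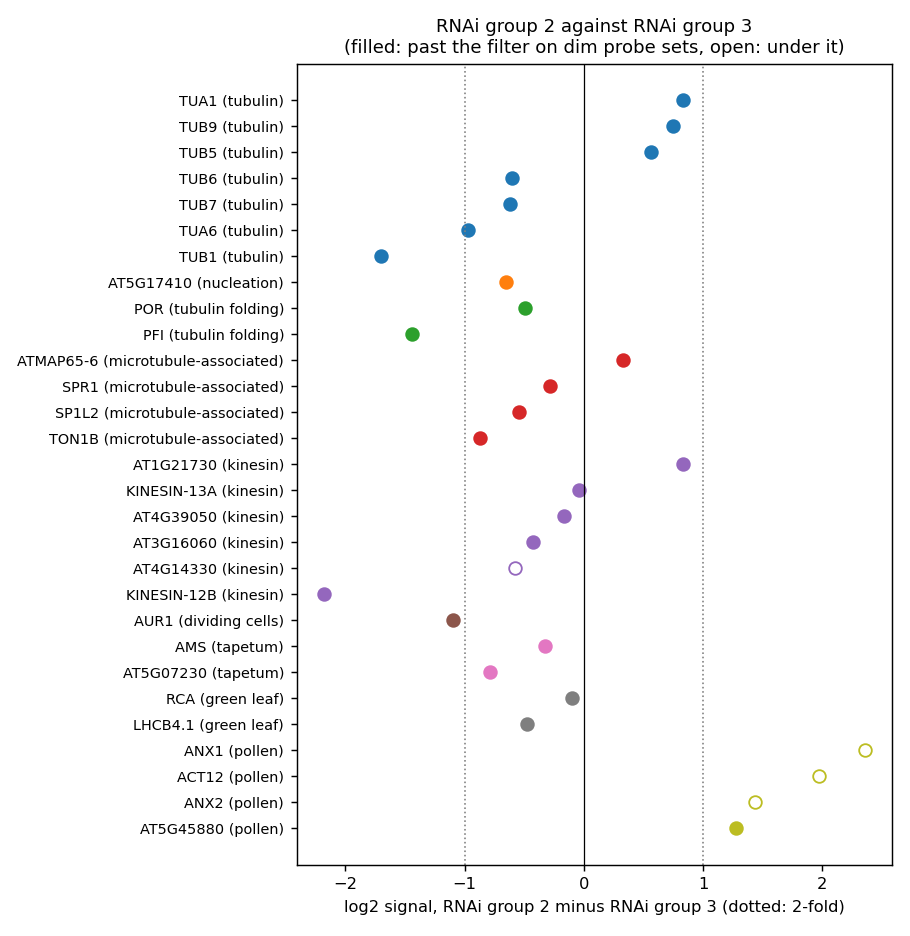
log2 difference of RNAi group 2 from RNAi group 3 (horizontal axis; positive is higher in RNAi group 2) for the tubulin genes, the genes of the 4 microtubule lists and the markers of dividing cells, tapetum, green leaf and pollen, 1 array on each side. Dotted lines mark 2-fold. Of the 13 genes of the microtubule lists, 11 lie left of 0, beside 49.3% of all probe sets, and 2 lie beyond 2-fold, beside 16.9%. The 3 open pollen points rest on signals under 32 in RNAi group 3, so their size is not read. KINESIN-12B likewise rests on a signal under 32 in RNAi group 2 (28.6).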

How the data were processed

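The authors deposited linear intensity, 1 value per probe set and array. The submitters' processing notes name GCOS and MAS5, without versions in what was used here. Trimmed by 2% at each end, every column averaged 500.05 or 500.06, so the arrays were not scaled again. Of 22810 probe sets, 64 controls were left out. Probe sets were named through the platform annotation (13513 with 1 gene, 503 with several and not named), and 13436 matched the TAIR10.1 reference table. Signals were put on the log2 scale, and the 15922 probe sets with a mean above the 30th percentile (5.307) were kept. RNAi groups 2 and 3 were fitted against the shared array with limma 3.58.1 in R 4.3.3 (lmFit and eBayes with an intensity trend), with 1 residual and 7.45 prior degrees of freedom and an adjusted p threshold of 0.05. The spread of the lone shared array was taken to equal that of the RNAi arrays, and p-values measure only the spread between 2 arrays, whose number limits the precision. The fit was also run on simulated data. Those arrays were given normal noise of equal spread, so they do not check whether the shared array has the spread of the RNAi arrays.

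The tubulin genes, the gene lists and the tests were chosen with earlier results of these data known. Named genes are all 7 tubulins (TUB9 by the symbol rule), the 2 nearest named genes per tubulin and the 2 brightest markers per list. For each microtubule list they are the 3 genes past the filter with the largest difference from the shared array. Outside this rule, every root and pollen gene with a probe set is named, as are ACT11, XIC and XI-I of the actin and myosin lists. KINESIN-12B and AT4G14330 were named after their values were seen. Alternatives were quantile normalisation, median centring, signals under 32 set to 32, 16 added to each signal, no filter, a 50th percentile filter, no intensity trend, robust eBayes, all 4 columns and leaving out each RNAi group. Detection calls were not used here.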

Additional observations from a re-analysis of the deposited data

How the results depend on the processing

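No tubulin gene passed under any setting run, and the lowest limma adjusted p of a tubulin gene was 0.9999. Of 63 tubulin values under the other scalings, filters, variance models and the 4-column fit, 62 kept their sign. The exception was TUB7 with median centring (-0.035). The filters and variance models do not alter the estimates, and no tubulin signal lies under the floor of 32. The 4-column fit only shrinks each estimate. Among these 63 values a sign could thus change only with quantile normalisation, median centring or the offset. Centring moved the median of all probe sets in RNAi group 2 from the shared array by more than 0.1, to -0.08 against 0.04 as deposited, and put TUB6 at -0.07 there, so that 4 of the 7 tubulin genes were higher in RNAi group 2 instead of 5. The split of 3 tubulin genes higher in RNAi group 2 and 4 higher in RNAi group 3 was the same under all 4 other scalings. Of these, only quantile normalisation and median centring could change it. The floor alters no tubulin signal, and adding the same amount to each signal keeps the order of the arrays. Leaving out RNAi group 1 changed nothing, because its values are those of the shared array. Leaving out each RNAi group in turn gave -0.007 to 0.83 for TUA1, -0.34 to 0.63 for TUA6, -0.27 to 0.35 for TUB7, 0.68 to 2.38 for TUB1, 0.57 to 1.13 for TUB5, 0.05 to 0.65 for TUB6, 0.30 to 1.04 for TUB9, and 0.57 to 0.68 for the beta median. Without RNAi group 2 or 3 no test was possible, since no residual degrees of freedom remained. The alpha median, 0.28, became 0.20 with median centring and 0.19 with all 4 columns, and the beta median, 0.67, became 0.45 with all 4 columns, a fit that counts the shared array in both groups. The 5 probe sets called higher became 0 with quantile normalisation, the floor, the offset, no filter, robust eBayes and all 4 columns, and 13 without the intensity trend; the cause was not tested. Each tubulin gene has 1 probe set of its own, so no other probe set could be tried. No paired analysis was possible because the labels number the RNAi groups and not the control.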

Other observations

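Actin filaments are the tracks of myosin XI-K, and few genes of that system had a probe set listed to them alone. Of 8 actin genes listed, 2 had one. ACT11, an actin of reproductive organs, had 252.5 in RNAi group 2 and 370.4 in RNAi group 3, against 346.3 on the shared array (log2 difference -0.18, SE 0.53), and did not pass in limma. Its order, lowest in RNAi group 2 and highest in RNAi group 3, was that of TUA6 and TUB7 and of 23.2% of all probe sets. Of 17 myosins listed, 6 had a probe set and 4 passed the filter, of which 0 were called in limma, beside 0.0314% of all probe sets called higher and 0% lower. At an unadjusted p under 0.05 the count was 1 of 4, beside 0.923% higher and 0.301% lower. That gene was XIC, whose signal of 18.6 on the shared array is under 32. XI-I had 227.9 and 233.1 in RNAi groups 2 and 3, against 176.6 on the shared array.

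AT4G14330 of the kinesin list lay under the filter, with 34.4 in RNAi group 2 and 51.3 in RNAi group 3, against 4.4 on the shared array. It is named after its values were seen, and no fold is given because the signal on the shared array is near background.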
